A study of Mus musculus with 16 samples.

Results

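Cadherins and protocadherins are calcium-dependent adhesion proteins of the cell surface, and they are described here across single cells of the embryonic mouse forebrain. A gene was taken as a member of the family when its symbol in the deposited gene list was Cdh or Pcdh followed by a number, or by letters and a number. This rule uses no measured value, and it gave 56 of the 14498 genes in the matrix. They comprised 17 genes with Cdh symbols (3 type I classical cadherins, 11 type II classical cadherins and 3 atypical cadherins, among them Cdhr1) and 39 protocadherins. The protocadherins were 4 of the delta1 group, 5 of the delta2 group, 3 other single genes, and 4, 18 and 5 genes of the alpha, beta and gamma clusters.

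Classical cadherins hold cells together by binding the same molecule on a neighbouring cell, and their tails bind catenins, which link them to actin. N-cadherin, the product of Cdh2, holds radial glia together at the ventricular surface and takes part in the radial migration of cortical neurons. Protocadherins have no catenin-binding tail. The delta2 group can recruit the WAVE complex that drives actin branching, and the clustered genes give each neuron its own combination of surface proteins, which is used to tell its own branches from those of other neurons.

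The 16 samples share a single group: wild-type CD1 mouse embryos at embryonic day 15.5, whose single cells were sequenced with the SureCell droplet kit; the source is named as forebrain and the series as cerebral cortex. The deposited matrix holds 5777 cells whose names carry no sample, so cells cannot be assigned to samples, the matrix counts as 1 sample, and no p-value is given. Intervals are 95% intervals for counting error only. In the order of the matrix the cells were divided into 2 runs of 3647 and 2122 cells, with 4 cells between them. The first run was ended at the last cell with a UMI of a Y-linked gene. The second was started at the first cell with a UMI of any of 11 genes listed out of alphabetical order. By this definition the second run holds no UMI of those Y-linked genes and the first none of the 11 genes. What the runs are is not stated, and values within each run stand beside the called ratios whose direction within a run was not that of all cells. Another 4 cells rich in globin were set apart.

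Depth was shallow, with a median of 3258 UMIs (counted RNA molecules) per cell and a range of 1111 to 17398. The 5773 cells analysed fell into 26 clusters, which were drawn without the family's genes, and 21 clusters took a class name from marker genes. The names rest on resemblance to markers: Fabp7 stood at 3684 CPM (the share of the class's UMIs on the usual CPM scale) in radial glia-like cells, Eomes at 2415 CPM in intermediate progenitor-like cells and Ebf1 at 837 CPM in striatal neuron-like cells. The interneuron-like class was made of the Lhx6 clusters, in which Lhx6 stood at 746 CPM. A cluster led by Sp8 was left without a class name because 3 of its 10 leading genes were markers of ganglionic eminence progenitors and 2 were its own, and it is called the Sp8 cluster. Cells of ventral origin were thus part of the collection of cells. The 5 clusters without a class name held 1113 cells, and apart from the Sp8 cluster their cells are in no class. Their best matches were radial glia (223 cells), intermediate progenitors (209 cells) and excitatory neurons (246 and 146 cells). The first 2 of these had Ube2c among their leading genes, as did a ganglionic eminence progenitor-like cluster that was named. The classes are therefore parts of their cell types.

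The family took 19951 UMIs, 0.0924% of all UMIs. The share was 0.134% in deep layer neuron-like cells, 0.133% in Lhx6 interneuron-like cells and 0.126% in Cajal-Retzius cell-like cells. It was 0.0729% in radial glia-like cells, 0.0607% in ganglionic eminence progenitor-like cells and 0.0501% in intermediate progenitor-like cells, and lowest in microglia-like cells at 0.0185%. Of the members, 33 had at least 50 UMIs over all cells and 18 had at least 200. After thinning each cell to 1000 UMIs, a deep layer neuron-like cell held 1.22 detected members on average and an intermediate progenitor-like cell 0.386. At this depth 35.1% of Lhx6 interneuron-like cells and 53.8% of radial glia-like cells showed no member at all, so combinations of members within single cells could not be read.

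The subfamilies were measured very unequally. The 5 delta2 genes gave 6249 UMIs, the type I genes 4390, the type II genes 3135, the delta1 genes 2276 and the atypical genes 1252. Among clustered protocadherins the 18 beta genes gave 2294 UMIs, while the 4 alpha genes gave 32 and the 5 gamma genes 84, and none of these 9 reached 50 UMIs. Alpha and gamma transcripts splice a variable first exon to exons shared by their cluster. In the GENCODE annotation of mm10 the last 500 bases of all 3 alpha members found there and of all 5 gamma members overlapped other genes on the same strand, up to 12 genes for alpha and up to 21 for gamma. Of the 18 beta genes, which are not spliced to shared exons, 1 overlapped another gene there. Whether this sharing lowered the alpha and gamma counts was not tested.

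**Figure D1:**
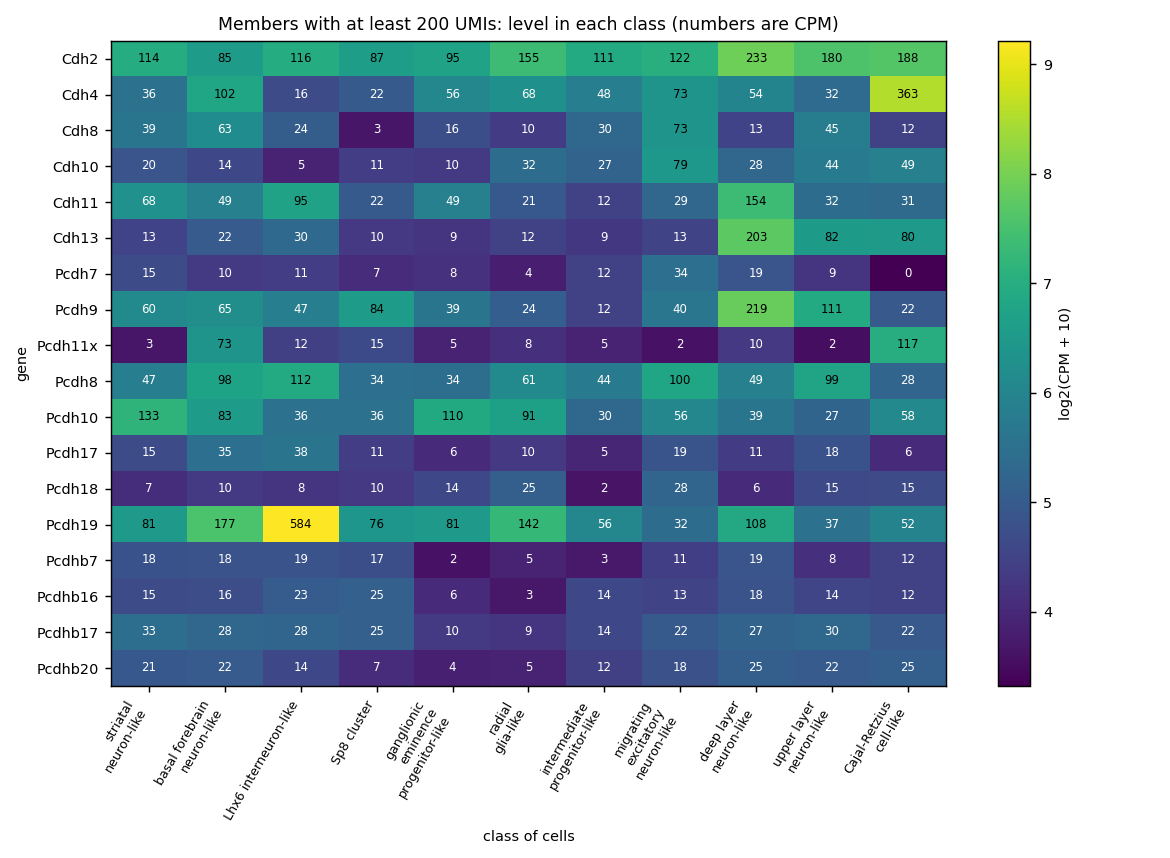
Level of the 18 members with at least 200 UMIs (rows) in 11 classes of cells (columns); colour is log2(CPM + 10) and the printed numbers are CPM. The brightest cell of the plot is Pcdh19 in Lhx6 interneuron-like cells at 584 CPM, while Cdh4 stands out in Cajal-Retzius cell-like cells at 363 CPM and Cdh13, Cdh11 and Pcdh9 in deep layer neuron-like cells.

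The heat map of levels shows that most of these 18 members were detected in every large class but differed in where they were highest. Over the 9 classes of progenitors, excitatory neurons, interneurons and striatal neurons, with deep and upper layer cells kept apart and the Sp8 cluster included, 6 of the 18 best measured members were highest in deep layer neuron-like cells and 5 in migrating excitatory neuron-like cells. A further 3 were highest in Lhx6 interneuron-like cells, 2 in striatal neuron-like cells and 2 in the Sp8 cluster. None of the 18 was highest in radial glia-like or intermediate progenitor-like cells. Cdh2, which encodes N-cadherin, varied least among the well measured classical cadherins: it ranged from 233 CPM in deep layer neuron-like cells to 86.6 CPM in the Sp8 cluster, a span of 1.33 on the scale of log2(CPM + 10). Pcdh19 spanned 3.82 on that scale, Cdh13 3.52 and Pcdh9 3.35.

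Excitatory neuron-like cells were compared with radial glia-like cells, the progenitors of the cortical wall. The excitatory class was pooled over the named deep layer, upper layer and other excitatory clusters, and carried more of most members measured at 50 UMIs. A gene was measured where the compared classes together had at least 50 UMIs, and it was called where the ratio of CPM reached 1.5 either way. Of 21 members measured, 13 were higher in excitatory neuron-like cells and 3 were lower. Over all 10181 genes measured in this comparison, 54.6% were called, 24.4% higher and 30.2% lower. The members had a median log2 ratio of 1.45, against -0.13 for all genes. The minimum was summed over both classes, and excitatory neuron-like cells held 5837320 UMIs against 1956775 in radial glia-like cells. Sparse members could therefore be measured through the excitatory class alone. In the other comparisons, too, sparse members could be measured through the class with more UMIs. With a minimum of 200 UMIs, 9 members were measured, 3 higher and 2 lower. With 10 UMIs, 37 were measured, 23 higher and 5 lower. By subfamily, 5 of 5 measured beta genes, 3 of 4 type II genes and 2 of 3 delta1 genes were higher, whereas of the 5 delta2 genes 1 was higher and 2 were lower.

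Cdh13, which encodes the membrane-anchored T-cadherin that lacks a cytoplasmic tail, had the largest ratio. It stood at 149 CPM (868 UMIs) in excitatory neuron-like cells, against 12.3 CPM (24 UMIs) in radial glia-like cells, a ratio of 12.1 with an interval of 8.09 to 19.0. The gene spans chr8:118283733-119324921 on the plus strand of mm10. Pcdh9, a delta1 protocadherin, stood at 161 CPM in excitatory neuron-like cells, against 24.0 CPM in radial glia-like cells, a ratio of 6.72 (5.01 to 9.21). Cdh11, a type II cadherin, stood at 112 CPM in excitatory neuron-like cells, against 21.0 CPM in radial glia-like cells, a ratio of 5.35 (3.90 to 7.52). In the first and second run of cells alone the ratio was 15.3 and 9.55 for Cdh13, 9.31 and 4.75 for Pcdh9, and 7.36 and 3.74 for Cdh11.

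Smaller counts carried the other members higher in excitatory neuron-like cells. Pcdh20 had a ratio of 5.45 and Cdh12 of 5.11, each on 4 UMIs in radial glia-like cells. Pcdhb16 had a ratio of 4.80, Pcdhb20 of 4.66 and Pcdhb18 of 3.86. Pcdh7 followed at 3.14, Pcdhb7 at 2.85 and Pcdhb17 at 2.74. The type II cadherin Cdh8 had a ratio of 1.94, and Pcdh17 had 1.52 with an interval that spans no difference, 0.915 to 2.64. The direction of Cdh8, Pcdh17 and Cdh4 was not the same in both runs of cells. Cdh8 was 1.22-fold lower in the first run, on 25 UMIs in excitatory neuron-like and 11 in radial glia-like cells, and 3.14-fold higher in the second. Pcdh17 was 3.5-fold higher in the first run and 1.03-fold lower in the second, and Cdh4 was 1.07-fold higher in the first and 3.49-fold lower in the second.

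Members lower in excitatory neuron-like cells were led by delta2 genes. Pcdh10, which encodes a protocadherin that binds the WAVE complex, stood at 33.1 CPM in excitatory neuron-like cells, against 91.5 CPM in radial glia-like cells, 2.77-fold lower (2.24 to 3.41). It was 1.76-fold lower in the first run of cells alone and 5.10-fold lower in the second. Pcdh18 stood at 9.25 CPM in excitatory neuron-like cells, against 24.5 CPM in radial glia-like cells, 2.65-fold lower (1.76 to 3.99). Cdh4, which encodes R-cadherin, was 1.51-fold lower, at 45.1 CPM in excitatory neuron-like cells and 68.0 CPM in radial glia-like cells. Cdh2 lay between the limits, at 191 CPM in excitatory neuron-like cells and 155 CPM in radial glia-like cells, a ratio of 1.23 (1.09 to 1.40).

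**Figure D2:**
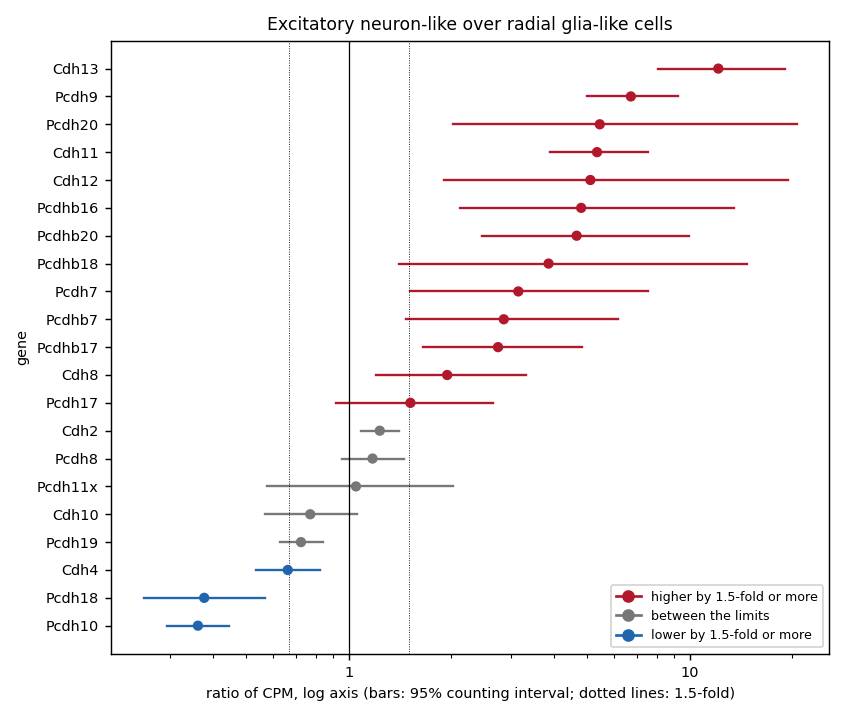
Ratio of CPM in excitatory neuron-like over radial glia-like cells (log axis) for the 21 members measured, with 95% counting intervals; dotted lines mark 1.5-fold. The ratios run from 12.1 for Cdh13 to 0.361 for Pcdh10, and the intervals of members with few UMIs, such as Pcdh20 and Cdh12, are the widest.

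Partners of the cadherins were split in the same comparison. Of 11 measured catenins and tail partners, 3 were higher and 6 lower, with a median log2 ratio of -0.77. Jup, which encodes plakoglobin, was 7.51-fold higher and Ctnna2, the neuronal alpha-catenin, 7.47-fold higher (351 CPM in excitatory neuron-like cells and 47.0 CPM in radial glia-like cells). Vcl, which encodes the actin linker vinculin, was 9.59-fold lower, and Ctnna1, the widely expressed alpha-catenin, was 6.81-fold lower (42.3 CPM in excitatory neuron-like cells and 288 CPM in radial glia-like cells). The genes of the 2 alpha-catenins thus stood in opposite directions.

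Of 10 other genes of the cadherin superfamily, 6 were higher and 2 lower, with a median of 1.10. Clstn2, which encodes a calsyntenin of the synapse, was 8.75-fold higher and Celsr3, a cadherin with a receptor-like membrane part that acts in axon guidance, 6.61-fold higher. Fat1 was 21.0-fold lower and Celsr1 10.7-fold lower. Of 15 apical junction and polarity genes, 2 were higher (Prkcz 6.70-fold and Numbl 2.48-fold) and 11 lower, led by Crb2 at 27.6-fold and Pard3b at 18.8-fold. The median of that list was -1.45. Of 7 WAVE complex genes 3 were higher (Cyfip2 2.64-fold and Wasf1 1.95-fold among them) and 1 lower (Cyfip1, 1.81-fold).

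Of 12 proteases that cut cadherins, 4 were higher, led by Mmp24 at 7.52-fold and Pcsk5 at 2.94-fold, and 2 lower, Mmp14 at 4.47-fold and Adam17 at 2.82-fold. Of 5 repressors of cadherin genes, 3 were higher, led by Scrt1 at 7.19-fold and Scrt2 at 4.67-fold, and 2 lower, Zeb1 at 5.88-fold and Tcf3 at 4.17-fold. Of 12 genes with a part in the promoter choice of clustered protocadherins, 1 was higher, the cohesin loader gene Mau2 at 1.61-fold, and 7 lower, led by Lbr at 4.97-fold and Stag2 at 2.53-fold. Of 15 reelin and Rap1 genes that act on N-cadherin in migration, 4 were higher, led by Dab1 at 4.41-fold and Vldlr at 3.19-fold, and 3 lower, led by Arf6 at 1.77-fold and Rap1a at 1.59-fold. Of 4 nectin genes none was higher and 2 were lower, Pvrl3 at 1.87-fold and Pvrl1 at 1.56-fold. Over all 91 measured genes of the 9 lists, 26 were higher and 36 lower, where 54.6% of all measured genes were called.

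In classes set in the order of the excitatory lineage, the members did not move together. All cells are of embryonic day 15.5, so no cell was followed over time. Stage and layer identity of these classes cannot be told apart here. Intermediate progenitor-like cells, which arise from radial glia and divide into neurons, had less of several members than radial glia-like cells. Of 10 members measured, 1 was higher and 5 were lower, where 34% of all measured genes were called, 14.1% higher and 19.9% lower, and the members' median log2 ratio was -0.63, against -0.03 for all genes. This lean depended on the minimum count. With 10 UMIs, 24 members were measured, 8 higher and 10 lower, and with 200 UMIs 3 were measured, 0 higher and 2 lower. Pcdh18 was 10.5-fold lower (3.38 to 52.6) on 3 UMIs (2.34 CPM in intermediate progenitor-like cells and 24.5 CPM in radial glia-like cells). Pcdh10 was 3.08-fold lower, Pcdh19 2.53-fold, Pcdh9 1.92-fold and Cdh11 1.68-fold, the last with an interval from 1.09-fold higher to 3.20-fold lower. Cdh11 and Pcdh9 turned to higher, with log2 ratios of 0.38 and 0.50, when unnamed clusters were also given their best class. Cdh8 was 2.90-fold higher (1.65 to 5.26), at 29.7 CPM in intermediate progenitor-like cells and 10.2 CPM in radial glia-like cells.

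Migrating excitatory neuron-like cells were taken as the young neurons on their way to the cortical plate. They had more of most members measured at 50 UMIs than intermediate progenitor-like cells. Of 16 members measured, 12 were higher and 1 was lower, where 27.9% of all measured genes were called, 13% higher and 14.9% lower. The members' median log2 ratio was 1.06, against -0.08 for all genes. The minimum was summed over both classes, and migrating cells held 3170761 UMIs against 1281450 in intermediate progenitor-like cells. Sparse members could thus be measured through the migrating class alone. With 10 UMIs, 30 members were measured, 20 higher and 5 lower, and with 200 UMIs 6 were measured, 5 higher and 0 lower. With family members and pathway lists among the clustering features, 15 were measured, 7 higher and 1 lower. Pcdh18 was 11.9-fold higher (3.93 to 58.6), at 27.8 CPM in migrating excitatory neuron-like cells and 2.34 CPM in intermediate progenitor-like cells. Pcdh17 was 3.46-fold higher, Pcdh9 3.21-fold, Cdh10 2.96-fold, Pcdh7 2.75-fold and Cdh8 2.47-fold. Cdh11 was 2.30-fold higher, Pcdh8 2.29-fold and Pcdh10 1.89-fold. Pcdhb17, Cdh4 and Pcdhb20 lay between 1.51-fold and 1.55-fold, and the intervals of Pcdhb17 (0.912 to 2.77) and Pcdhb20 (0.842 to 2.87) span no difference. Pcdh19 was 1.75-fold lower. At a clustering resolution of 0.5 the log2 ratio of Pcdh19 turned to 1.20 and that of Pcdh7 to -0.054, and with family genes among the clustering features that of Pcdh17 turned to -0.13 and that of Pcdhb20 to -0.031.

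Excitatory neuron-like cells differed from migrating ones in both directions, with 8 of 24 measured members higher and 7 lower. Of all measured genes 28.2% were called, 15.5% higher and 12.7% lower, and the median log2 ratio was 0.28 for the members and -0.03 for all genes. Cdh13 was 11.2-fold higher, Cdh12 8.28-fold, Pcdh9 4.03-fold, Cdh11 3.90-fold, Pcdh11x 3.65-fold, Pcdh19 3.20-fold, Pcdh20 2.94-fold and Cdh2 1.56-fold. Cdh8 was 3.68-fold lower, Cdh10 3.16-fold, Pcdh18 3.0-fold, Pcdh7 2.68-fold, Pcdhb4 2.34-fold, Pcdh10 1.70-fold and Cdh4 1.62-fold. At a clustering resolution of 0.5 the log2 ratio was -0.67 for Pcdh11x and -0.27 for Pcdh19. The ratio of Cdh4 rested on the second run of cells, where it was 3.79-fold lower, since its log2 ratio in the first run alone was 0.0036. Of the 8 measured beta genes, 7 lay between the limits. The summed beta level was 42.4 CPM in radial glia-like cells, 83.5 CPM in intermediate progenitor-like cells, 111 CPM in migrating and 133 CPM in excitatory neuron-like cells.

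Cdh8 and Cdh10, both type II cadherins, were thus highest in migrating cells. Cdh8 stood at 10.2, 29.7 and 73.2 CPM in radial glia-like, intermediate progenitor-like and migrating excitatory neuron-like cells, and Cdh10 at 32.2, 26.5 and 78.5 CPM. Deep layer neuron-like cells had 12.7 CPM of Cdh8 and 28.5 CPM of Cdh10. Upper layer neuron-like cells had more of both genes than deep layer neuron-like cells, as given below. The migrating class held 2 clusters, compared after their values were seen, in which these genes differed. Cdh8 stood at 48.6 CPM in the cluster led by Pdzrn3, against 95.2 CPM in the cluster led by Tac2, 1.96-fold lower (1.48 to 2.62), and Cdh10 at 55.3 CPM in the Pdzrn3 cluster, against 99.4 CPM in the Tac2 cluster, 1.80-fold lower. Pcdh7 was 1.90-fold lower and Cdh2 1.61-fold lower in the Pdzrn3 cluster. In the other direction, Pcdh9 was 2.92-fold higher there, Pcdh8 2.61-fold, Pcdh18 2.38-fold and Cdh11 1.70-fold. These directions were the same in both runs of cells except for Pcdh18, which was 4.68-fold higher in the first and 1.04-fold lower in the second.

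The promoters of Cdh8 and Cdh10 are shown because both genes were highest in migrating excitatory neuron-like cells. Each sequence is from RefSeq on mm10, runs from 250 bases before to 50 bases after the annotated start in the direction of transcription, and has every CG dinucleotide in capitals. The Cdh8 promoter lies at chr8:99416422-99416721 on the minus strand and the Cdh10 promoter at chr15:18820079-18820378 on the plus strand. The start used for Cdh10 lies 1382 bases inside the gene as GENCODE annotates it, while that of Cdh8 is the outer start of its gene, and a promoter at the outer start of Cdh10 was not analysed here.
Cdh8: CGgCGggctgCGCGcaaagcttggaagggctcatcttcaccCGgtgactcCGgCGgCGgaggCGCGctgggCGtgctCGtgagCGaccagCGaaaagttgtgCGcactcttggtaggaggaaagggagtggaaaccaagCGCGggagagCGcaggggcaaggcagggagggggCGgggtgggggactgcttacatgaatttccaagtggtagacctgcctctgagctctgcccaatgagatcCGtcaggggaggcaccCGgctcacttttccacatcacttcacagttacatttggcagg
Cdh10: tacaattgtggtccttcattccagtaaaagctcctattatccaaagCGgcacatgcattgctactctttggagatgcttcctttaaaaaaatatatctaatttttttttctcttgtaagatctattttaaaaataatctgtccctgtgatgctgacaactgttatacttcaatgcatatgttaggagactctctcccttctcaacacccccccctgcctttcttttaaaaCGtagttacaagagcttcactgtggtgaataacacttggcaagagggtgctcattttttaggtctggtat
The Cdh8 window holds 21 CG dinucleotides and 62.3% G and C, and the Cdh10 window holds 2 and 37.7%. Over 32851 promoters of the same length the median was 7 CG dinucleotides, and 24.8% held at least 21. The E-box CAGATG, searched on both strands, occurs in neither promoter, and it occurs in 17.2% of all promoters.

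**Figure D3:**
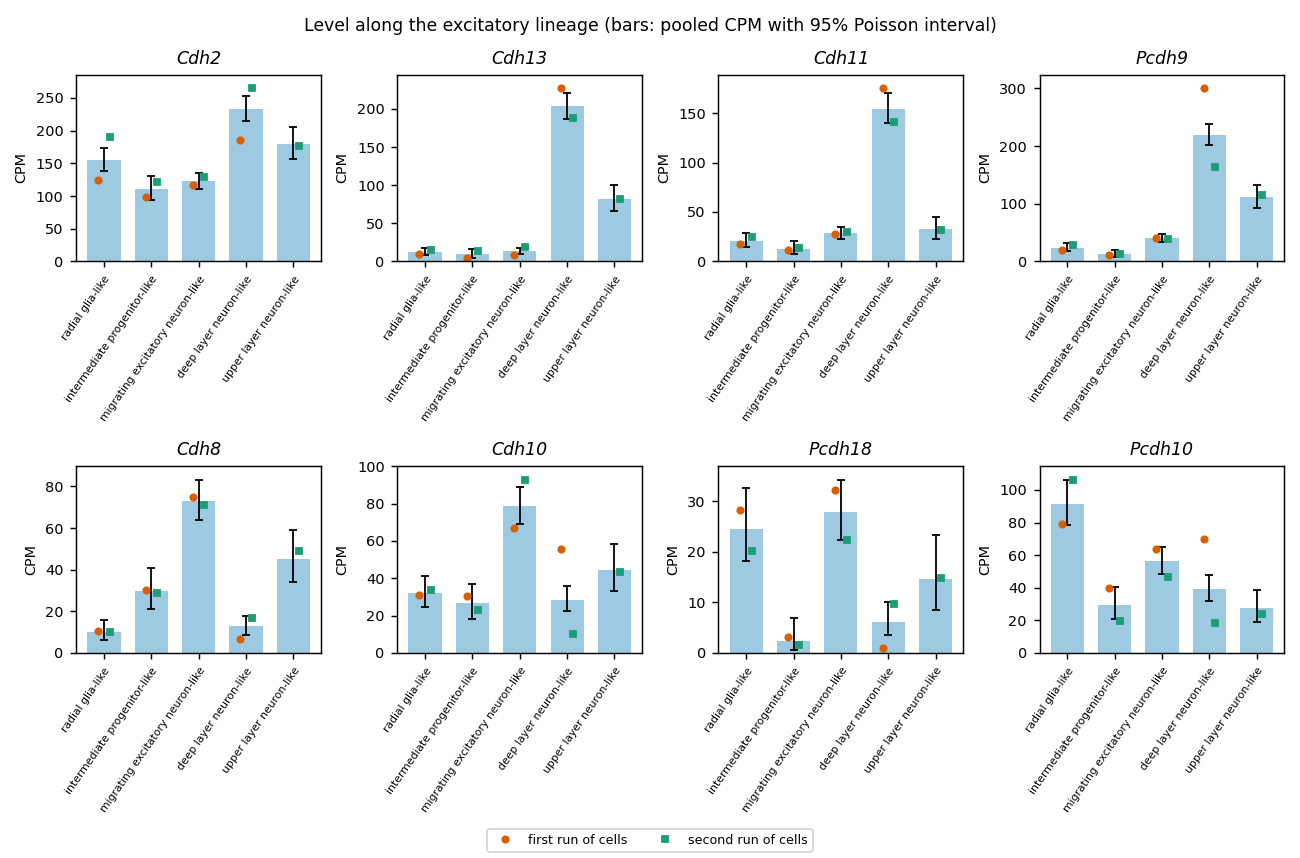
CPM of 8 members from radial glia-like cells through intermediate progenitor-like and migrating excitatory neuron-like cells to deep and upper layer neuron-like cells. Bars are pooled cells with 95% Poisson intervals, and circles and squares are the runs of cells where a run holds at least 50 cells of the class. Cdh8, Cdh10 and Pcdh18 are highest in migrating cells, Cdh13, Cdh11 and Pcdh9 in deep layer cells and Pcdh10 in radial glia-like cells.

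Deep layer neuron-like cells had more of several members than upper layer neuron-like cells, the later born projection neurons. Of 15 members measured, 7 were higher in deep layer neuron-like cells and 3 lower, where 20.7% of all measured genes were called, 13.8% higher and 6.91% lower. The members' median log2 ratio was 0.52, and that of all genes 0.04. Cdh11 stood at 154 CPM in deep layer neuron-like cells, against 32.5 CPM in upper layer neuron-like cells, 4.76-fold higher (3.41 to 6.82). Pcdh19 was 2.94-fold higher, Pcdhb7 2.51-fold, Cdh13 2.48-fold, Pcdh7 2.25-fold, Pcdh9 1.97-fold and Cdh4 1.69-fold. Cdh8 was 3.56-fold lower, at 12.7 CPM in deep layer neuron-like cells and 45.3 CPM in upper layer neuron-like cells. Pcdh8 was 2.03-fold lower and Cdh10 1.56-fold lower.

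Of the 248 upper layer neuron-like cells, 230 belonged to the second run, against 367 of the 613 deep layer neuron-like cells. In the second run alone, 12 members were measured, 3 higher and 3 lower, so the excess of higher members was not seen there. Cdh4 was higher over all cells but 1.06-fold lower in the first run and 1.34-fold lower in the second, a log2 ratio of -0.42. Pcdhb7 was 1.74-fold lower in the first run, on 3 UMIs in upper layer neuron-like cells, and 3.47-fold higher in the second. Pcdh7 was 2.43-fold higher in the second run, and in the first it had 15 UMIs in deep layer and 0 in upper layer neuron-like cells, too few for a direction. Cdh12, a type II cadherin with 129 UMIs in all, stood at 31.6 CPM (22.2 to 43.6) in upper layer neuron-like cells and at 10.5 CPM in all excitatory neuron-like cells, of which the upper layer cells are part.

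The deep layer class held 2 clusters that differed further, a contrast chosen after the values were seen. Its smaller cluster of 169 cells had Fosl2, Fezf2 and Ldb2 among its leading genes, and its larger cluster of 444 cells was led by Hs3st4 and had Tle4 among them. Pcdh8 stood at 112 CPM in the Fezf2 cluster, against 15.3 CPM in the Hs3st4 cluster, 7.31-fold higher (4.71 to 11.7). The runs of cells alone gave 15.1-fold and 5.06-fold. Cdh4 stood at 8.88 CPM in the Fezf2 cluster, against 77.2 CPM in the Hs3st4 cluster, 8.70-fold lower. Pcdh10 was 4.39-fold lower, Cdh10 3.40-fold lower and Pcdh9 2.07-fold lower in the Fezf2 cluster. Within the first and second run Pcdh10 was 3.25-fold and 2.60-fold lower, Cdh10 1.48-fold and 2.17-fold lower, and Pcdh9 1.53-fold and 1.82-fold lower. Cdh4 was at least 5.10-fold lower in the first run, where the Fezf2 cluster had 0 UMIs and 3 were put in their place, and 2.60-fold lower in the second. The Fezf2 cluster had 148 of its 169 cells in the second run.

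Lhx6 interneuron-like cells, young cortical interneurons that arise in the medial ganglionic eminence, were set apart from excitatory neuron-like cells above all by Pcdh19. Of 22 members measured, 5 were higher in Lhx6 interneuron-like cells and 7 lower, where 26.3% of all measured genes were called, 10.6% higher and 15.7% lower. Members had a median log2 ratio of 0.15 and all genes one of -0.01. Of the 5 delta2 genes 3 were higher and none was lower, and both type I genes were lower.

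Pcdh19 encodes a delta2 protocadherin whose human counterpart is mutated in a form of epilepsy that mainly affects females, and it spans chrX:133582860-133688987 on the minus strand of mm10. It stood at 584 CPM (693 UMIs) in Lhx6 interneuron-like cells, against 103 CPM (601 UMIs) in excitatory neuron-like cells, 5.67-fold higher (5.07 to 6.33). The ratio was 3.96 in the first run of cells and 9.0 in the second. Lhx6 interneuron-like cells held 26.7% of all Pcdh19 UMIs and were 481 of the 5773 cells. After thinning to 1000 UMIs a Pcdh19 UMI was found in 33.7% of Lhx6 interneuron-like cells (exact interval 29.5% to 38.1%), against 8.14% of excitatory neuron-like cells, 6.06% of striatal neuron-like cells and 0.806% of upper layer neuron-like cells. Before thinning these shares were 49.9%, 23.3%, 11.4% and 8.87%, at median depths of 2285, 4428, 2376 and 4542 UMIs. Microglia-like cells, a type of another origin with a median of 3880 UMIs, had no Pcdh19 UMI in 18 cells.

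Other delta2 genes were higher in the same cells with smaller ratios. Pcdh17 stood at 37.9 CPM in Lhx6 interneuron-like cells, against 14.7 CPM in excitatory neuron-like cells, 2.57-fold higher (1.75 to 3.73), but its log2 ratio was -0.19 in the second run alone. Pcdh8, which encodes a protocadherin also known as arcadlin, stood at 112 CPM in Lhx6 interneuron-like cells, against 71.4 CPM in excitatory neuron-like cells, 1.57-fold higher. Single clusters overlapped. Pcdh8 stood at 140 CPM in the Lhx6 cluster led by Sst and 80.4 CPM in that led by Maf. It stood at 149 CPM in the Pdzrn3 and 56.9 CPM in the Tac2 cluster of migrating cells. In deep layer cells it stood at 112 CPM in the Fezf2 and 15.3 CPM in the Hs3st4 cluster. Pcdhb3 was 1.76-fold and Pcdhb16 1.54-fold higher, both with intervals that span no difference.

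Several members were lower in Lhx6 interneuron-like than in excitatory neuron-like cells. Cdh10 stood at 5.05 CPM (6 UMIs) in Lhx6 interneuron-like cells, against 24.8 CPM in excitatory neuron-like cells, 4.92-fold lower (2.20 to 13.6). Cdh13 stood at 30.3 CPM in Lhx6 interneuron-like cells, against 149 CPM in excitatory neuron-like cells, 4.90-fold lower (3.52 to 7.05), and 2.72-fold lower in the second run of cells alone. Pcdh9 was 3.42-fold lower, Pcdh20 3.31-fold, Cdh4 2.82-fold, Pcdhb20 1.66-fold and Cdh2 1.64-fold. Cdh11 lay between the limits, at 95.2 CPM in Lhx6 interneuron-like cells and 112 CPM in excitatory neuron-like cells.

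**Figure D4:**
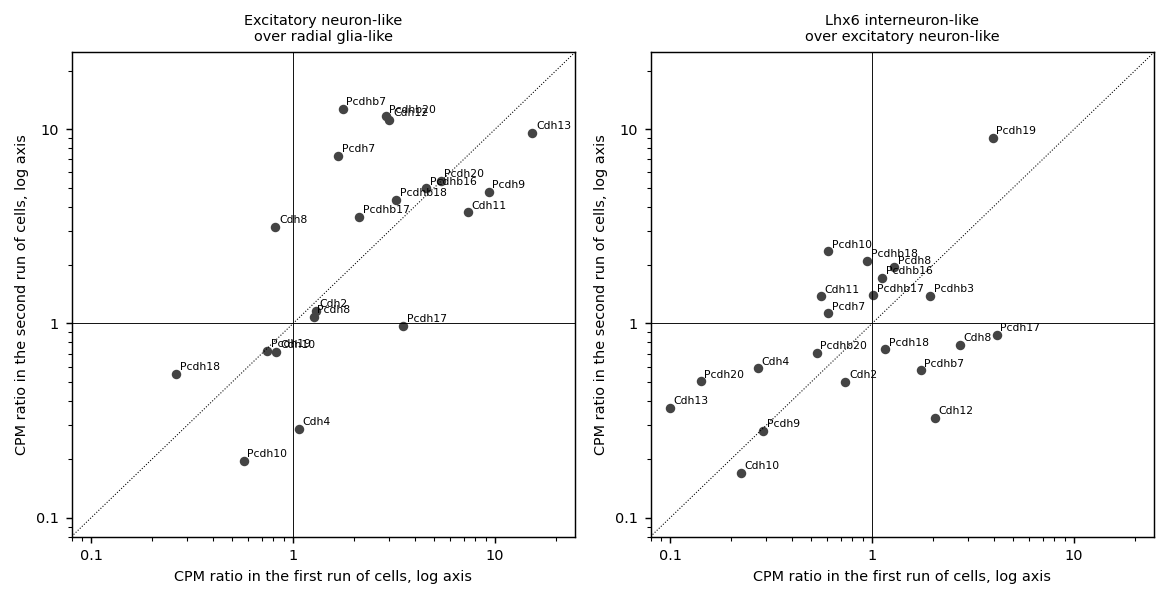
Ratio of CPM in the first run of cells (horizontal log axis) and in the second run (vertical log axis) for measured members, with excitatory neuron-like over radial glia-like cells on the left and Lhx6 interneuron-like over excitatory neuron-like cells on the right; the dotted line marks equal ratios. On the right Pcdh19 is highest, at 3.96 and 9.0, and on the left Cdh13, Pcdh9 and Cdh11 are far above 1 in both runs while Pcdh17, Cdh8 and Cdh4 fall on different sides of 1.

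Of the pathway genes, 9 of 88 measured were higher in Lhx6 interneuron-like than in excitatory neuron-like cells and 14 lower, a share near the 26.3% called over all measured genes. Of 11 catenins and partners 3 were higher, led by Pkp4 at 1.92-fold and Ctnnal1 at 1.60-fold, and 2 lower, Ctnnd2 at 1.69-fold and Jup at 1.52-fold. Of 10 other superfamily genes Fat1 was 2.33-fold higher and 4 were lower, led by Clstn2 at 9.44-fold and Fat4 at 6.40-fold. Of 15 reelin and Rap1 genes none was higher and 2 were lower, Dab1 at 9.77-fold and Sipa1l1 at 2.60-fold. Dab1, the adaptor that carries the reelin signal, stood at 69.9 CPM in Lhx6 interneuron-like cells, against 683 CPM in excitatory neuron-like cells.

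Of 12 apical junction genes measured here 3 were higher, led by Pard3 at 2.13-fold and Numb at 1.89-fold, and 2 lower, Prkcz at 1.85-fold and Numbl at 1.66-fold. Of 12 proteases Adam17 was 1.53-fold higher and 3 were lower, led by Pcsk5 at 4.64-fold and Mmp14 at 3.74-fold. Of 12 genes of promoter choice Stag1 was 1.75-fold higher and none was lower, and of 4 nectin genes Pvrl3 was 1.98-fold lower. None of the 7 WAVE complex genes and none of the 5 repressors passed 1.5-fold.

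Lhx6 interneuron-like cells also differed from the Sp8 cluster, which has markers of caudal interneurons and of progenitors. Of 8 members measured, 4 were higher and 1 was lower, where 23.8% of all measured genes were called, 12.5% higher and 11.3% lower. The median log2 ratio was 1.06 for the members and -0.02 for all genes. Pcdh19 stood at 584 CPM in Lhx6 interneuron-like cells, against 75.6 CPM in the Sp8 cluster, 7.72-fold higher (5.86 to 10.3). Cdh11 was 4.32-fold higher, Pcdh17 3.44-fold and Pcdh8 3.26-fold. Pcdh9 was 1.78-fold lower, at 47.2 CPM in Lhx6 interneuron-like cells and 83.9 CPM in the Sp8 cluster. Cdh22, a type II cadherin, had its highest level of the large classes in the Sp8 cluster, at 24.8 CPM on 18 UMIs.

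Pcdh19 also differed between the 2 clusters of the Lhx6 class, a contrast chosen after the values were seen. It stood at 851 CPM in the cluster led by Sst (237 cells), against 284 CPM in the cluster led by Maf (244 cells), 3.0-fold higher (2.51 to 3.60). The runs of cells alone gave 3.85-fold and 2.02-fold. Cdh11 was 2.59-fold higher in the Sst cluster, at 134 CPM there and 51.8 CPM in the Maf cluster. Of the Sst cluster 153 cells, and of the Maf cluster 41, belonged to the second run.

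Against ganglionic eminence progenitor-like cells, the same interneuron-like cells had more of 3 of 4 measured delta2 genes and less of Pcdh10. Of 9 members measured in Lhx6 interneuron-like over ganglionic eminence progenitor-like cells, 4 were higher and 2 lower, where 46.6% of all measured genes were called, 20.3% higher and 26.3% lower, with a median log2 ratio of 0.52 for the members and -0.08 for all genes. Pcdh19 was 7.20-fold higher (5.90 to 8.87), Pcdh17 5.87-fold, Pcdh8 3.32-fold and Cdh11 1.95-fold. Cdh4 was 3.49-fold lower and Pcdh10 3.05-fold lower. The progenitor class had 29 of its 386 cells in the second run, so this comparison rests mainly on the first, where Pcdh19 was 6.17-fold higher.

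Pcdh8 and Pcdh17 had their highest level among the 9 classes in Lhx6 interneuron-like cells. For Pcdh8 this holds for pooled classes only, since the Pdzrn3 cluster of migrating cells had 149 CPM, against 112 CPM in the Lhx6 class. Their promoters are shown because they were each other's nearest pattern. The Pearson correlation of log2(CPM + 10) over these 9 classes was 0.82, a description over pools that share their cells' depth. Both promoters lie on chromosome 14 of mm10, Pcdh8 at chr14:79771263-79771562 on the minus strand and Pcdh17 at chr14:84443313-84443612 on the plus strand, with CG dinucleotides in capitals as above.
Pcdh8: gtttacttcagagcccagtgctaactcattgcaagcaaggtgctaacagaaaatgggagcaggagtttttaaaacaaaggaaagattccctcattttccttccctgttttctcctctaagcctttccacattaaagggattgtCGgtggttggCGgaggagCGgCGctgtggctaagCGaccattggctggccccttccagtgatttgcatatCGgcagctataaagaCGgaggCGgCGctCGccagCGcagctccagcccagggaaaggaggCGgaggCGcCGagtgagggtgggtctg
Pcdh17: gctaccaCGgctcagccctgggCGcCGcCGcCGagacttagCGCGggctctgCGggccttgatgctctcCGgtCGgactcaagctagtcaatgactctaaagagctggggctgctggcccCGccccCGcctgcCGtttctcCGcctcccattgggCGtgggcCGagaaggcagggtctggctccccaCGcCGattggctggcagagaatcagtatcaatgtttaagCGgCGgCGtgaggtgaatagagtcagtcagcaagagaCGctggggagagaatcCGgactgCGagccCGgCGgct
The Pcdh8 promoter holds 14 CG dinucleotides and the Pcdh17 promoter 26. The Pcdh8 promoter holds a TATAAA motif, searched on both strands, which occurs in 13.6% of all promoters, and the Pcdh17 promoter holds none. Promoters of 21 members were matched, 24 in all, and none was of a clustered protocadherin. These 24 had a median of 16 CG dinucleotides and 60% G and C, against 7 and 52.7% over all promoters.

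Striatal neuron-like cells, projection neurons of the ventral forebrain, carried a different delta2 gene from the interneurons. Of 9 members measured in striatal neuron-like over Lhx6 interneuron-like cells, 2 were higher and 3 lower, where 20.4% of all measured genes were called, 9.62% higher and 10.8% lower. The median log2 ratio was -0.02 for the members and 0.01 for all genes. Pcdh10 stood at 133 CPM in striatal neuron-like cells, against 36.2 CPM in Lhx6 interneuron-like cells, 3.66-fold higher (2.53 to 5.38). Pcdh19 stood at 81.0 CPM in striatal neuron-like cells, against 584 CPM in Lhx6 interneuron-like cells, 7.21-fold lower (5.51 to 9.60). Pcdh17 was 2.47-fold lower and Pcdh8 2.36-fold lower. Cdh8 was 1.66-fold higher with an interval that spans no difference. The striatal class had 18 of its 264 cells in the second run, and in the first run alone Pcdh10 was 5.02-fold higher.

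Striatal neuron-like cells had more Cdh8 than ganglionic eminence progenitor-like cells. Of 8 members measured, 2 were higher in striatal neuron-like cells and 1 was lower, where 43.1% of all measured genes were called, 18.3% higher and 24.8% lower, so the members' share lay near that of all genes. For the members the median log2 ratio was 0.38, and for all genes -0.05. Cdh8 was 2.37-fold higher (1.32 to 4.31), Pcdh9 1.55-fold higher (1.01 to 2.36) and Cdh4 1.54-fold lower with an interval that spans no difference. Pcdh9 was 1.88-fold higher in the first run of cells, and in the second it had 0 UMIs in striatal neuron-like cells, against 11 in ganglionic eminence progenitor-like cells, at least 1.24-fold lower with 3 UMIs put in place of 0. The second run held 18 and 29 cells of these classes, and no member had 50 UMIs there. At a clustering resolution of 0.5, 5 of 7 measured members were higher and none lower. Pcdh10 stood at 133 CPM in striatal neuron-like cells and 110 CPM in ganglionic eminence progenitor-like cells, a ratio of 1.20 (0.920 to 1.56).

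**Figure D5:**
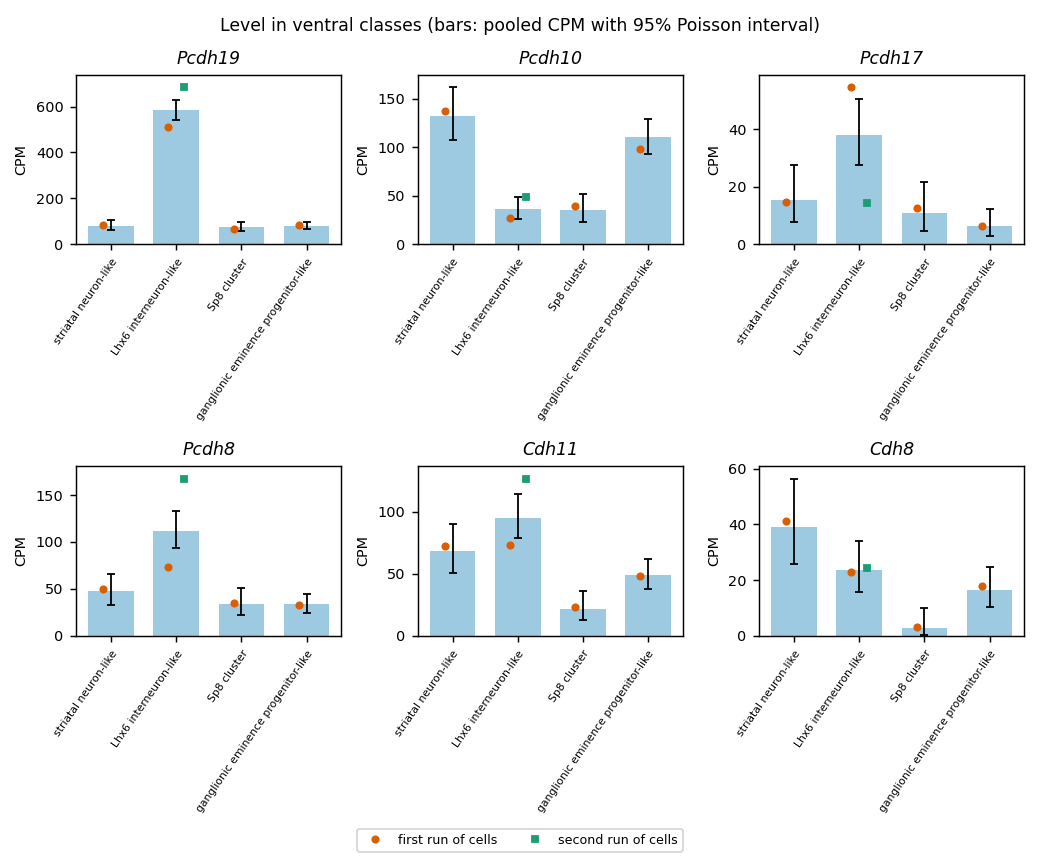
CPM of 6 members in striatal neuron-like cells, Lhx6 interneuron-like cells, the Sp8 cluster and ganglionic eminence progenitor-like cells. Bars are pooled cells with 95% Poisson intervals, and circles and squares are the runs of cells where a run holds at least 50 cells of the class. Pcdh19, Pcdh17 and Pcdh8 are highest in Lhx6 interneuron-like cells, and Pcdh10 is high in striatal and progenitor cells and low in Lhx6 interneuron-like cells and the Sp8 cluster.

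The progenitors of the ventral forebrain had less of 3 delta2 genes and of Cdh10 and Cdh2 than those of the dorsal forebrain, and more of Cdh11 and Pcdh9. Of 9 members measured in ganglionic eminence progenitor-like over radial glia-like cells, 2 were higher and 5 lower, where 22.8% of all measured genes were called, 10% higher and 12.8% lower. The median log2 ratio was -0.70 for the members and -0.05 for all genes. Cdh11 was 2.33-fold higher (1.56 to 3.52) and Pcdh9 1.61-fold higher, but the log2 ratio of Cdh11 was -0.38 with clusters drawn on 50% of UMIs and values from the rest. Cdh10 stood at 10 CPM in ganglionic eminence progenitor-like cells, against 32.2 CPM in radial glia-like cells, 3.21-fold lower. Pcdh8 was 1.80-fold lower, Pcdh19 1.75-fold, Pcdh18 1.71-fold and Cdh2 1.62-fold, and the interval of Pcdh18 spans no difference. Pcdh18 was 1.80-fold lower in the first run of cells, and in the second it had 0 UMIs in ganglionic eminence progenitor-like and 18 in radial glia-like cells, which does not set a direction at 3 UMIs in place of 0. The 2 clusters of these progenitors differed in Pcdh10, a contrast chosen after the values were seen: 178 CPM in the Olig2 cluster and 54.8 CPM in the Dlx2 cluster, 3.26-fold higher (2.27 to 4.76). Cdh11 stood at 73.3 CPM in the Olig2 cluster and 28.7 CPM in the Dlx2 cluster, 2.55-fold higher (1.51 to 4.46). Pcdh9 was 1.51-fold lower in the Olig2 cluster, with an interval that spans no difference. The Olig2 cluster had a mean log2 marker score of 1.70 for its class and 1.68 for oligodendrocyte precursors.

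Of the pathway genes in the remaining comparisons, the counts are given for all 9 lists together, each beside the share of all measured genes called in either direction. Higher and lower were 14 and 19 of 82 in intermediate progenitor-like over radial glia-like cells (34% of all genes), 12 and 20 of 87 in migrating over intermediate progenitor-like cells (27.9%), and 16 and 22 of 91 in excitatory over migrating cells (28.2%). They were 8 and 8 of 81 in deep over upper layer cells (20.7%), 10 and 13 of 70 in Lhx6 cells over the Sp8 cluster (23.8%), and 8 and 9 of 71 in striatal over Lhx6 interneuron-like cells (20.4%). They were 9 and 9 of 82 in ganglionic eminence progenitor-like over radial glia-like cells (22.8%), 13 and 26 of 77 in striatal over ganglionic eminence progenitor-like cells (43.1%), and 14 and 25 of 79 in Lhx6 interneuron-like over ganglionic eminence progenitor-like cells (46.6%). No difference between the lists and all genes is read from these counts.

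Small classes outside these comparisons held the highest levels of some members. In 75 Cajal-Retzius cell-like cells, the reelin-producing cells of the cortical surface, Cdh4 stood at 363 CPM (300 to 434), against 73.2 CPM in migrating excitatory neuron-like cells, its next highest of the excitatory classes. Pcdh11x, a delta1 gene on the X chromosome, stood there at 117 CPM and at 73.2 CPM in basal forebrain neuron-like cells, and at 15.1 CPM or less in the 9 classes. Cdh7, a type II cadherin, stood at 49.2 CPM in Cajal-Retzius cell-like cells on 16 UMIs.

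A cluster of 29 cells with meningeal fibroblast markers, in which endothelial markers were also raised, held members of vessels and mesenchyme. Cdh5, which encodes VE-cadherin of endothelial junctions, had 60 of its 62 UMIs there, at 382 CPM. Pcdh12, a protocadherin of vessels, had 23 of its 26 UMIs there. Cdh11 stood there at 280 CPM and Pcdh18 at 108 CPM, while Cdh13 had 0 UMIs, which allows up to 19.1 CPM at 3 counts.

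The likeness of patterns was described for the 18 best measured members. As correlations of log2(CPM + 10) over 9 classes, with no test, Cdh13 was nearest to Cdh2 at 0.87, Pcdhb17 to Pcdhb7 at 0.83, Cdh10 to Cdh4 at 0.66, Cdh8 to Pcdh7 at 0.65 and Pcdh11x to Pcdh19 at 0.64. The 2 members least alike were Cdh8 and Pcdh11x at -0.85.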

How the data were processed

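The authors deposited 1 matrix of raw counts (UMIs) per gene and cell for all 16 samples, with gene and cell names, and the submitters' processing notes name build mm10. Neither aligner nor counting tool nor annotation is given in the sources used here, and 0 columns of per-sample values were left unused. Symbols were taken as deposited, and the 56 members were found by symbol. The members, lists and limits were chosen with earlier results of these data known.

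Cells with at least 500 UMIs were kept, which removed none. After scaling each cell to 10000 and log1p transformation, 2000 variable genes without the family and its pathway lists gave 30 principal components, and leidenalg 0.10.2 (15 neighbours, resolution 1, seed 1) gave 26 clusters, with doublets kept. Clusters were named from 179 distinct marker genes, 168 of them in the matrix. UMIs were summed per class and divided by the class total (CPM). Ratios have exact conditional binomial 95% intervals and levels exact Poisson intervals, which cover counting error only; a class with 0 counts was given 3. Genes needed 50 UMIs over both classes and were called at 1.5-fold. Members past that limit are named by size, up to 10 in each direction, as are members with at least 200 UMIs and, in 2 comparisons, the 2 pathway genes with the largest ratio in each direction. In 4 pairs of clusters within a class, genes were chosen after their values were seen. Python 3.11.15 with numpy 2.4.6, scipy 1.17.1 and pandas 2.3.3 was used. The alternatives, 12 planned and 1 chosen after seeing the data, stand in the closing section.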

Additional observations from a re-analysis of the deposited data

How the results depend on the processing

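With no samples to compare, replicate error is unknown, and median depth per cell limits what could be measured: the Sp8 cluster, striatal and interneuron classes had the fewest UMIs per cell of the large classes. Scaling to a median of 0 and equal weight per cell turned no direction. Of 62 called ratios measured in the second run alone, 31 stayed the same, 28 moved without turning and 3 turned. In the first run alone these were 50, 17 and 3 of 70. At resolution 0.5 they were 62, 31 and 4 of 97. With clusters from 50% of UMIs and values from the other 50%, they were 45, 20 and 1 of 66. No paired analysis was possible because the cells carry no sample names. Counts of members past 1.5-fold are given below in this order: excitatory over radial glia-like, intermediate progenitor over radial glia-like, migrating over intermediate, excitatory over migrating, deep over upper, Lhx6 interneuron over excitatory, Lhx6 over the Sp8 cluster, striatal over interneuron, ganglionic eminence progenitor over radial glia-like, striatal over ganglionic eminence progenitor and interneuron over ganglionic eminence progenitor. They were 16, 6, 13, 15, 10, 12, 5, 5, 7, 3 and 6. With a minimum of 10 UMIs they were 28, 18, 25, 23, 23, 20, 16, 15, 18, 16 and 23, and with 200 they were 5, 2, 5, 9, 5, 6, 1, 1, 2, 0 and 1, since more or fewer members were measured. A limit of 2-fold gave 8 in migrating over intermediate, 7 in interneuron over excitatory, 2 in ganglionic eminence progenitor over radial glia-like and 1 in striatal over ganglionic eminence progenitor cells. With clusters from 50% of UMIs and values from the other 50%, the first 3 and the last 3 of these comparisons gave 9, 3, 7, 4, 1 and 3. Fewer UMIs were then counted. The first run of cells alone gave 9, 2, 9, 3, 3, 2 and 4 in excitatory over radial glia-like, intermediate over radial glia-like, excitatory over migrating, deep over upper, Lhx6 over the Sp8 cluster, striatal over interneuron and ganglionic eminence progenitor over radial glia-like cells. The second run alone gave 10, 7, 6, 3, 4 and 0 in excitatory over radial glia-like, migrating over intermediate, deep over upper, Lhx6 over the Sp8 cluster, ganglionic eminence progenitor over radial glia-like and striatal over ganglionic eminence progenitor cells, the 0 because no member was measured there. Resolution 0.5 gave 5 in striatal over ganglionic eminence progenitor cells, and family genes among the clustering features gave 8 in migrating over intermediate cells. The cause of these moves was not tested beyond the smaller counts.

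Among ratios on at least 50 UMIs, directions turned in these log2 ratios, and those that turned in a run on fewer UMIs are given beside the results. At resolution 0.5, migrating over intermediate gave 1.20 for Pcdh19 and -0.054 for Pcdh7, and excitatory over migrating gave -0.67 for Pcdh11x and -0.27 for Pcdh19. With family genes as features, migrating over intermediate gave -0.13 for Pcdh17 and -0.031 for Pcdhb20. With half-depth clusters, Cdh11 was -0.38 in ganglionic eminence progenitor over radial glia-like cells. In the first run Cdh4 was 0.10 in excitatory over radial glia-like, 0.0036 in excitatory over migrating and -0.078 in deep over upper cells. In the second run Pcdh17 was -0.040 in excitatory over radial glia-like and -0.19 in interneuron over excitatory cells, and Cdh4 was -0.42 in deep over upper cells. With unnamed clusters also given their best class, an alternative chosen after seeing the data, Cdh11 was 0.38 and Pcdh9 0.50 in intermediate progenitor over radial glia-like cells. The cause was not tested.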
